A study of Mus musculus with 8 samples.

Results

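Myc and 31 genes of nucleolar ribosome assembly, 32 in all, were taken from the 23997 genes of the deposited expression table by matching their symbols to a fixed list. Each of the 32 was found in the table and passed the filter on low values, as did 12565 genes in total. MYC is a transcription factor that switches on genes of growth, and the genes of ribosome assembly are among its best known targets. Ribosomes are begun in the nucleolus: RNA polymerase I copies the ribosomal DNA, small nucleolar RNPs (snoRNPs) modify and fold the transcript, and separate sets of factors then build the small and the large subunit. In blood, the pathway is very active in dividing progenitors and is turned down as granulocytes mature.

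The 8 libraries were made from RNA of the bone marrow of C57BL/6 mice killed by a leukemia that had been transplanted into them. Marrow cells of 5-fluorouracil treated mice, grown with IL3, IL6 and SCF, had been transduced and given to lethally irradiated mice. The AE+Meis2 group (n = 3, median latency 171 days) carried AML1-ETO and Meis2, the AE9a+Meis2 group (n = 3, 102 days) carried AML1-ETO9a and Meis2, and the AE9a group (n = 2, 138 days) carried AML1-ETO9a alone. AML1-ETO joins the blood transcription factor RUNX1 to the corepressor ETO, AML1-ETO9a is its shorter splice form, and Meis2 is a homeobox transcription factor. The vector, its promoter, the ages of the mice and the batches are not known here. Whole marrow holds leukemic and other cells together, so fewer cells of a type and less RNA per cell cannot be told apart. Nothing in the labels says that libraries came from separate transductions, so p-values measure only the spread between these libraries, which may be technical.

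Levels are FPKM, fragments scaled to transcript length and to the library's mapped fragments, and differences are of log2(FPKM + 1). Values of 3 libraries are given in order of replicate number. Several libraries stood apart before any of the 32 genes was considered. The library labelled AE+Meis2 replicate 1 held 13.1 FPKM of Meis2 and 21.6 FPKM of Runx1t1, the mouse ETO gene, against 38.2 and 81.5 FPKM of Meis2 and 223 and 218 FPKM of Runx1t1 in AE+Meis2 replicates 2 and 3. Its values lay near those of the AE9a libraries, 6.99 and 13.2 FPKM of Meis2 and 26.8 and 23.4 FPKM of Runx1t1. They go against its label, under which it is named below. Medians and counts of the 32 genes are also given without that library. Leaving it out turned the sign of no single gene's difference named here, but of some medians of gene lists given below. AE9a+Meis2 replicate 3 and AE9a replicate 1 had values above 0 in 84.1% and 72.1% of 1543 genes of receptor, keratin-associated and defensin families that marrow does not use, against at most 6.61% in the rest. Small RNA entries took 8.66% to 37.9% of a library's summed FPKM, and S100a8 alone took 12% in AE+Meis2 replicate 3. Xist, the RNA of the silenced X chromosome, and the Y-linked Eif2s3y also set libraries apart: AE+Meis2 replicates 1 and 2 held 1.93 and 5.79 FPKM of Xist and 158 and 176 FPKM of Eif2s3y, and the other 6 libraries 82.4 to 206 FPKM of Xist and at most 7.06 FPKM of Eif2s3y.

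The promoters were searched for a short motif. RefSeq promoters (GRCm38.p6, 250 bases before to 50 bases after the start) were found for 26 of the 32 genes. The letters CACGTG, the E-box that MYC with its partner MAX is known to bind, read the same on both strands. They stood in 6 of the 26 (23.1%), in 11.8% of the 9386 tested genes with a promoter, and in 8.09% of all 27025 genes with a promoter. The 4 promoters below hold the motif, in capitals, and belong to genes of different steps: Nop2 (chr6:125131633-125131932, + strand) of the large subunit, Wdr43 (chr17:71615965-71616264, + strand) of the small subunit, Mybbp1a (chr11:72441077-72441376, + strand) at RNA polymerase I, and Tsr1 (chr11:74897830-74898129, + strand) of late small subunit assembly.
Nop2: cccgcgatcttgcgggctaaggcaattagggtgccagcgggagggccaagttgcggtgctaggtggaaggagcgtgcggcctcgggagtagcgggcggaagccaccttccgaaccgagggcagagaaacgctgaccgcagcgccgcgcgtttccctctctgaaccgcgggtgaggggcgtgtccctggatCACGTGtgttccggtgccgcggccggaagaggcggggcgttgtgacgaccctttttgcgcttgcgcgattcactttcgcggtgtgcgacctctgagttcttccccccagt
Wdr43: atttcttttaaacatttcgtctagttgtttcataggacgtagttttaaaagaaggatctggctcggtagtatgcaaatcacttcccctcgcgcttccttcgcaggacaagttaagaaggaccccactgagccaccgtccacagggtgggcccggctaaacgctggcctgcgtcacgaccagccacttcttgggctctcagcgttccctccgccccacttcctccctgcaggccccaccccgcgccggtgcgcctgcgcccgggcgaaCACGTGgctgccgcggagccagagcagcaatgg
Mybbp1a: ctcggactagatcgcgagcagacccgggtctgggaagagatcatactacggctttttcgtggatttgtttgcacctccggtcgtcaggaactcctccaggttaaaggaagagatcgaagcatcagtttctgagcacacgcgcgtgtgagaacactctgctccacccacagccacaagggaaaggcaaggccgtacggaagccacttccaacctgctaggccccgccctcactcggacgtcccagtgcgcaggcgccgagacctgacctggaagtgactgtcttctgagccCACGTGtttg
Tsr1: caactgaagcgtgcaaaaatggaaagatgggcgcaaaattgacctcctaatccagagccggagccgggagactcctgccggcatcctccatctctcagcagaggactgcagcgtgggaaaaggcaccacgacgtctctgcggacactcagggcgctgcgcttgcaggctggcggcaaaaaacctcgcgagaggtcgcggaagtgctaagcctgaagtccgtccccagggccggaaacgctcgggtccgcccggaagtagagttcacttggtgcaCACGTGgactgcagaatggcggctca
The motif begins 60 bases before the start in Nop2, and 17, 40 and 24 bases after it in Wdr43, Mybbp1a and Tsr1. Pes1 and Utp20 also hold it, 2 and 37 bases after the start. For contrast stand 2 promoters in which these letters were not found: Gnl3 (chr14:31019082-31019381, - strand), which had the largest difference between the Meis2 groups among the 32, and Bysl (chr17:47611443-47611742, - strand), whose levels ran against those of most others.
Gnl3: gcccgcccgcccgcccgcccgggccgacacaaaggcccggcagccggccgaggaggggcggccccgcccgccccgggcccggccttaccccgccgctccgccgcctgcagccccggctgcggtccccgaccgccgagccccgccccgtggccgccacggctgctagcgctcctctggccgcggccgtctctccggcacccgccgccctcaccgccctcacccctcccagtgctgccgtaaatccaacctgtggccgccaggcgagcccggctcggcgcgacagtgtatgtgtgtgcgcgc
Bysl: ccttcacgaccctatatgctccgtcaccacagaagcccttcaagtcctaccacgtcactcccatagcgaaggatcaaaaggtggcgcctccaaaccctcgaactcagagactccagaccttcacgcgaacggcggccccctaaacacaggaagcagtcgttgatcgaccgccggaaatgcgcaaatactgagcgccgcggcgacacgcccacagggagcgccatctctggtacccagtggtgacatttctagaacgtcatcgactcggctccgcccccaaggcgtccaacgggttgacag
Of the genes with the motif 5 of 6 were highest in an AE+Meis2 library, as were 18 of 20 without it and 58.3% of all genes tested. A match or its lack in this window is a description and says nothing about binding.

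Expression of the nucleolar genes divided the libraries within the groups rather than between them. Summed over the 31 genes without Myc, AE+Meis2 libraries held 2149, 2104 and 1352 FPKM, AE9a+Meis2 libraries 1398, 1678 and 1311 FPKM, and AE9a libraries 1291 and 1991 FPKM. The libraries labelled AE+Meis2 replicates 1 and 2 and AE9a replicate 2 were thus the highest, and the remaining AE+Meis2 library lay inside the range of AE9a+Meis2. AE+Meis2 replicates 1 and 2 are also the libraries with low Xist and high Eif2s3y, whose part in the sums was not tested. For 20 of the 31 genes (64.5%) exactly these 3 libraries were the 3 highest, against 5.26% of all genes tested. The 3 libraries were picked from the sums of the same genes, so this is a description of how evenly the genes moved together and no test. In 8 more genes 2 of the 3 were among the highest, and the exceptions were Bysl, Bop1 and Pes1. The 3 were also the highest when libraries were scaled by median ratio (2156, 2061 and 1969 FPKM) or to the sum without small RNA (2171, 2239 and 2174 FPKM). AE+Meis2 replicate 3 was then the lowest of all, at 1280 and 891 FPKM.

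**Figure D1:**
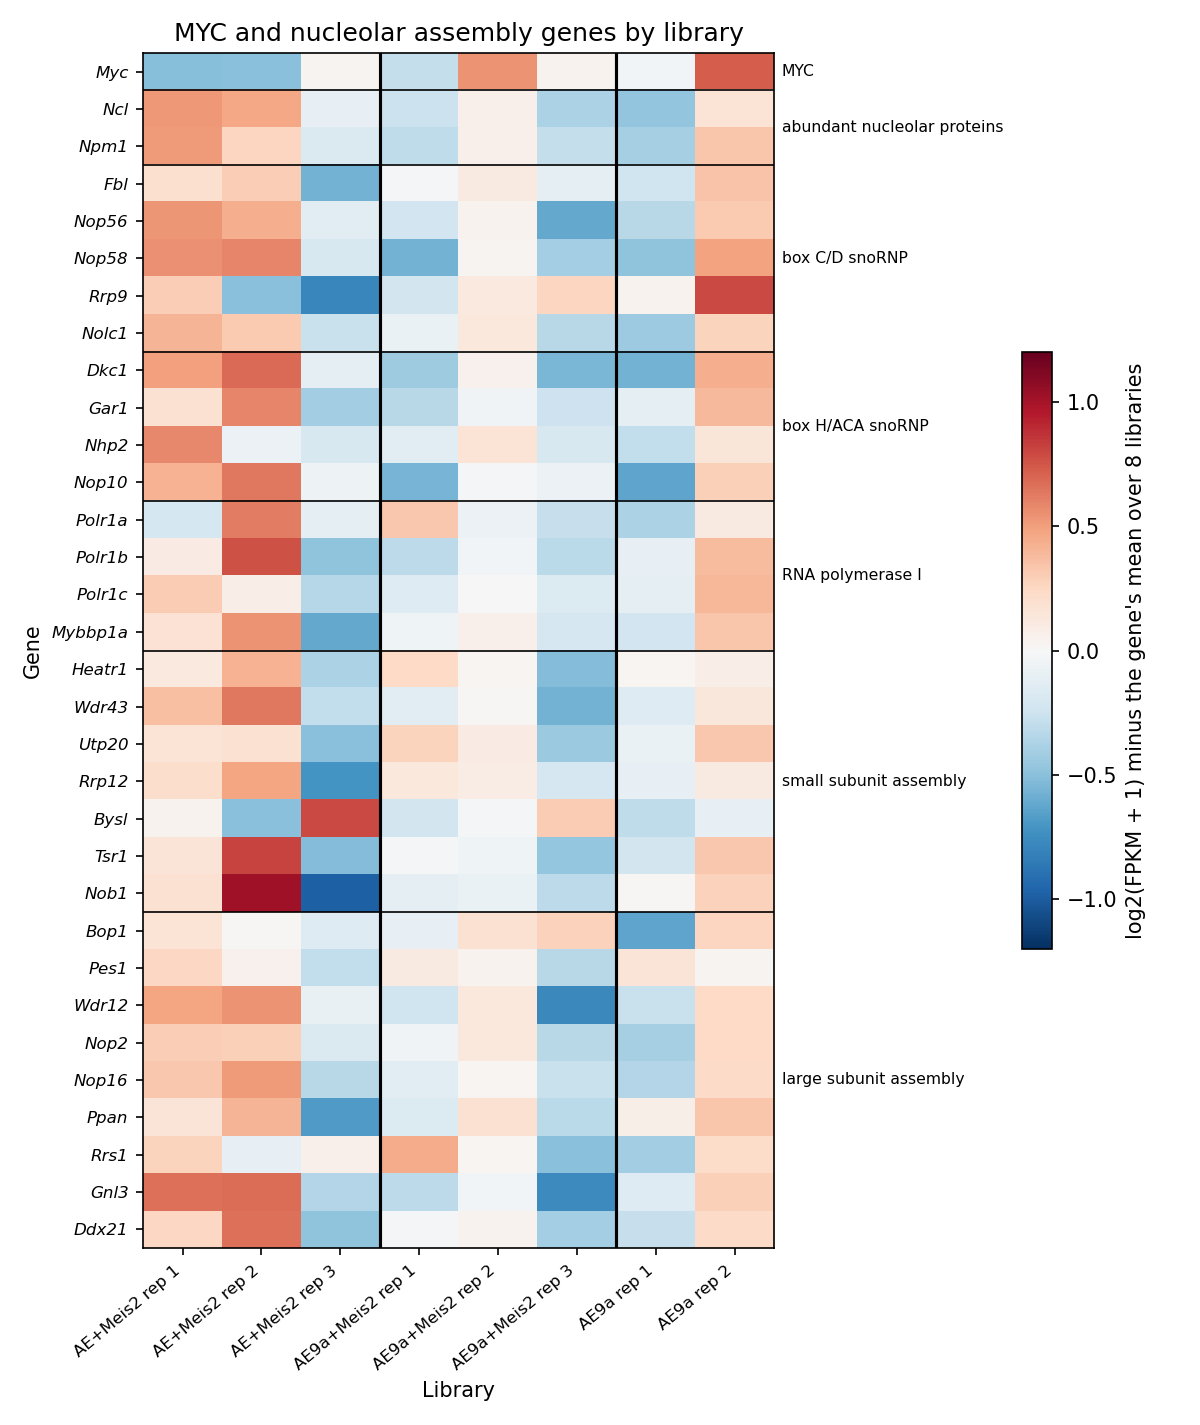
Level of each of the 32 genes in each library, as log2(FPKM + 1) minus the gene's mean over the 8 libraries (color scale), with genes in rows by role and libraries in columns by group. AE+Meis2 replicates 1 and 2 and AE9a replicate 2 are red in most rows, while Myc in the top row is blue in AE+Meis2 replicates 1 and 2 and the row of Bysl runs the other way.

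Myc itself (chromosome 15, 61985341 to 61990361) stood at 22.8, 23 and 33.8 FPKM in AE+Meis2 libraries, 26.9, 48.4 and 33.9 FPKM in AE9a+Meis2 libraries, and 32.2 and 55.2 FPKM in AE9a libraries. The 2 libraries with the largest nucleolar sums, AE+Meis2 replicates 1 and 2, had the least Myc as deposited. In AE9a+Meis2 and in AE9a, by contrast, replicate 2 had both the most Myc and the largest sum of its group. Scaled to the sum without small RNA, Myc was at 23.1, 24.5 and 22.3 FPKM in AE+Meis2 libraries, at 29.6, 51.9 and 34.9 FPKM in AE9a+Meis2 libraries, and at 39.1 and 60.3 FPKM in AE9a libraries. On that scale AE+Meis2 replicate 3 was lowest both in Myc and in the sum. Its values were divided there by a factor of 1.517, against 0.823 to 0.99 in the other libraries, while its median ratio factor was 1.056. Scaled by median ratio, Myc was at 22.9, 22.5 and 32 FPKM in AE+Meis2 libraries. There replicates 1 and 2 again had the least Myc and the largest sums. Means were 26.5 ± 6.27 FPKM in AE+Meis2, 36.4 ± 10.9 FPKM in AE9a+Meis2 (SD, n = 3 each) and 43.7 ± 16.3 FPKM in AE9a (SD, n = 2). AE+Meis2 differed from AE9a by a log2 of -0.67 ± 0.34 (± gives the standard error, 95% interval -1.48 to 0.14), and from AE9a+Meis2 by -0.43 ± 0.31 (-1.15 to 0.30). AE9a+Meis2 differed from AE9a by -0.25 ± 0.34 (-1.05 to 0.56). Without AE+Meis2 replicate 1, against whose label its transgene levels go, the AE+Meis2 differences were -0.58 from AE9a and -0.33 from AE9a+Meis2. None passed (limma with Benjamini-Hochberg over all genes, adjusted p = 0.921, 0.8 and 1), and libraries overlapped in each comparison. The AE+Meis2 differences stayed negative under each scaling tried, and the AE9a+Meis2 difference turned to 0.13 without AE9a replicate 2.

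**Figure D2:**
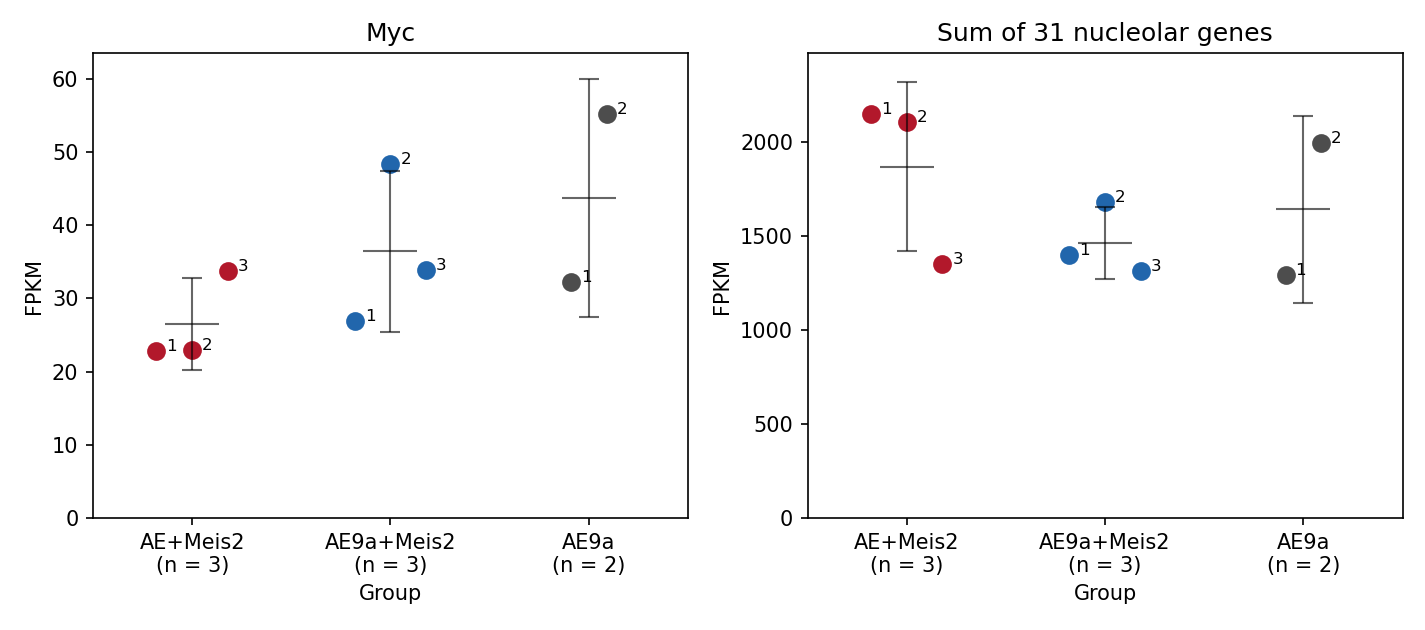
FPKM of Myc (left) and summed FPKM of the 31 nucleolar genes (right) in each library, numbered by replicate, with the group mean and SD as the black bar (n = 3, 3 and 2). AE+Meis2 replicates 1 and 2 hold the largest sums, 2149 and 2104 FPKM, and the least Myc, 22.8 and 23 FPKM, in the values as deposited.

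Markers of other processes and cell types were compared with the same 3 libraries. All 12 proliferation markers, such as Mki67 and Top2a, were above 0 in every library. Their sum was 538, 352 and 638 FPKM in AE+Meis2, 389, 589 and 346 FPKM in AE9a+Meis2, and 383 and 565 FPKM in AE9a. AE+Meis2 replicate 3 thus had the most proliferation transcripts with one of the smaller nucleolar sums, and AE+Meis2 replicate 2 had few proliferation transcripts with one of the largest. The 8 progenitor markers summed to 265 to 562 FPKM in AE+Meis2, 198 to 314 FPKM in AE9a+Meis2, and 241 to 363 FPKM in AE9a, with Mecom at 0 in 1 library. Their 3 highest libraries, at 387, 562 and 363 FPKM, were the same 3 as for the nucleolar sum. In AE+Meis2 replicate 2 the progenitor sum was carried by Kit and Gata2, at 224 and 189 FPKM. Kit and Gata2 were at 46.6 and 120 FPKM in AE+Meis2 replicate 1, and at 121 and 96.9 FPKM in AE9a replicate 2. Kit in AE+Meis2 replicate 1 was thus below the 66.5 FPKM of AE9a replicate 1. Other members ran differently over the same 3 libraries. Flt3 was at 7.57, 4.93 and 9.9 FPKM in these 3 libraries against a maximum of 53.3 FPKM in AE9a+Meis2 replicate 1, and Myb was highest in AE+Meis2 replicate 3 at 159 FPKM. The same 3 libraries led in the sum of the 6 megakaryocyte and platelet markers, all above 0, with sums of 103, 365 and 15.9 FPKM in AE+Meis2, 17.3, 18.7 and 23.3 FPKM in AE9a+Meis2, and 25.5 and 33.1 FPKM in AE9a. Itga2b alone held 255 of the 365 FPKM in AE+Meis2 replicate 2. Itga2b, Pf4 and Gp1ba were each highest in these 3 libraries, while Gp9, Ppbp and Gp6 were not. Ppbp was highest in AE9a replicate 1, at 2.44 FPKM. Neutrophil granule markers (12 of 12 above 0) summed to 1932 to 181729 FPKM in AE+Meis2, 3362 to 37739 FPKM in AE9a+Meis2 and 5369 to 20298 FPKM in AE9a, with the maximum in AE+Meis2 replicate 3. Erythroid markers (13 of 13 found, all above 0) summed to 751 to 7109 FPKM in AE+Meis2, 1607 to 4151 FPKM in AE9a+Meis2 and 2287 to 4280 FPKM in AE9a, with the minimum in the same library. Stress and dissociation markers such as Fos and Dusp1 (11 of 11 above 0) had the largest median difference of the marker lists. They summed to 1104, 133 and 2506 FPKM in AE+Meis2, 1717, 1053 and 1738 FPKM in AE9a+Meis2, and 125 and 339 FPKM in AE9a. All 9 that were tested were higher in AE9a+Meis2 than AE9a without overlap, where 13.1% of all genes were, with a median log2 difference of 2.61, and none passed limma over all genes. They ran apart from the nucleolar sum, since AE+Meis2 replicate 2 and AE9a replicate 1, near opposite ends of it, were both low. Of the other lists, monocyte and macrophage markers summed to 511 to 1117 FPKM in AE+Meis2, 660 to 2366 FPKM in AE9a+Meis2, and 494 and 589 FPKM in AE9a. Mast cell and basophil markers summed to 1210 to 3007 FPKM in AE+Meis2, 516 to 1362 FPKM in AE9a+Meis2, and 822 and 1746 FPKM in AE9a. Stroma and endothelium markers, which are scarce here, summed to 59 to 99.5 FPKM in AE+Meis2, 27.4 to 51.3 FPKM in AE9a+Meis2, and 117 and 97.4 FPKM in AE9a. T and NK cell markers summed to 62.9 to 126 FPKM in AE+Meis2, 15.1 to 84.1 FPKM in AE9a+Meis2, and 31.8 and 58.8 FPKM in AE9a, and B cell markers to at most 112 FPKM in any library. The part of these markers in the nucleolar levels was not tested.

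The most abundant of the 32 were Npm1 and Ncl, the histone chaperone nucleophosmin and the RNA-binding protein nucleolin. Npm1 (chromosome 11, 33152498 to 33164142) was at 805, 677 and 501 FPKM in AE+Meis2 libraries, 459, 592 and 465 FPKM in AE9a+Meis2 libraries, and 430 and 714 FPKM in AE9a libraries. Ncl (chromosome 1, 86344719 to 86359455) was at 140, 134 and 90.8 FPKM in AE+Meis2 libraries, 80.9, 101 and 74.3 FPKM in AE9a+Meis2 libraries, and 69.8 and 109 FPKM in AE9a libraries. Both were highest in AE+Meis2 replicate 1, and all groups overlapped. Npm1 has many near-identical processed copies in the mouse genome, and how reads were divided between them is not stated.

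The core proteins of box C/D snoRNPs, which guide methylation of the ribosomal RNA, are the methyltransferase Fbl with Nop56 and Nop58. Nop58 (chromosome 1, 59684961 to 59711510) was at 91.5, 93.7 and 54.5 FPKM in AE+Meis2 libraries, 41.6, 63.8 and 46.6 FPKM in AE9a+Meis2 libraries, and 44.3 and 87.4 FPKM in AE9a libraries. Nop56 (chromosome 2, 130274367 to 130279313) was at 105, 98.6 and 66 FPKM in AE+Meis2 libraries, 61.8, 74.9 and 47 FPKM in AE9a+Meis2 libraries, and 57.5 and 90.3 FPKM in AE9a libraries. For both genes AE+Meis2 replicate 3 lay within the ranges of the other groups. Fbl ranged from 78.2 to 148 FPKM, and the snoRNP chaperone Nolc1 from 21.9 to 40.1 FPKM. Rrp9 (chromosome 9, 106477309 to 106485415), a protein of the U3 snoRNP, was at 18.7, 10.3 and 8.29 FPKM in AE+Meis2 libraries, 12.7, 16.4 and 18.1 FPKM in AE9a+Meis2 libraries, and 15.5 and 26.8 FPKM in AE9a libraries. It was low in AE+Meis2 replicate 2, where most of the others were high.

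Box H/ACA snoRNPs convert uridines of the ribosomal RNA to pseudouridine and have 4 core proteins. Dkc1, the pseudouridine synthase dyskerin (chromosome X, 75095854 to 75109776), was at 41.7, 47.7 and 27.1 FPKM in AE+Meis2 libraries, 21.6, 30.5 and 19.8 FPKM in AE9a+Meis2 libraries, and 19.5 and 40.1 FPKM in AE9a libraries. Nop10 (chromosome 2, 112261926 to 112262898) was at 90.2, 105 and 64.5 FPKM in AE+Meis2 libraries, 45.6, 66.7 and 64.1 FPKM in AE9a+Meis2 libraries, and 43.1 and 82.6 FPKM in AE9a libraries. Again AE+Meis2 replicates 1 and 2 and AE9a replicate 2 were highest. Dkc1 lies on the X chromosome, and the part of the low Xist in AE+Meis2 replicates 1 and 2 in its level was not tested. Gar1 ranged from 13.9 to 28.9 FPKM and Nhp2 from 39.6 to 73.4 FPKM.

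Of the RNA polymerase I genes, the largest subunit Polr1a ranged from 12.5 to 25.8 FPKM, Polr1b from 7.15 to 18.3 FPKM, and Polr1c, shared with RNA polymerase III, from 23.4 to 39.8 FPKM. Mybbp1a, a nucleolar protein reported to hold this polymerase back, ranged from 37.4 to 84.2 FPKM. Polr1a, Polr1b and Mybbp1a were highest in AE+Meis2 replicate 2, Polr1c in AE9a replicate 2, and all but Polr1a were lowest in AE+Meis2 replicate 3. The 2 ends of the range thus fell within 1 group for Polr1b and Mybbp1a.

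Small subunit factors showed the widest and the most discordant member. Nob1, the nuclease that makes the last cut in the small subunit RNA (chromosome 8, 107412489 to 107425038), was at 36.1, 65.2 and 15.6 FPKM in AE+Meis2 libraries, 29.3, 30.1 and 25.4 FPKM in AE9a+Meis2 libraries, and 32 and 38.7 FPKM in AE9a libraries. Its 4.19-fold range, the largest of the 32, lay between 2 AE+Meis2 libraries. Bysl, which helps assemble the small subunit (chromosome 17, 47599331 to 47611492), was at 15.9, 10.6 and 27.5 FPKM in AE+Meis2 libraries, 13.1, 15.2 and 19.3 FPKM in AE9a+Meis2 libraries, and 12.3 and 14.3 FPKM in AE9a libraries. It was highest where the others were low and lowest in AE+Meis2 replicate 2. The exons of Bysl share 361 of 3854 bases with Ccnd3, the cyclin D3 gene on the opposite strand (GENCODE M21, GRCm38), and the library kit named in the labels does not mark strand. Ccnd3 was at 70.5, 62.6 and 178 FPKM in AE+Meis2 libraries, 89.1, 102 and 148 FPKM in AE9a+Meis2 libraries, and 71.9 and 72.2 FPKM in AE9a libraries. The 2 libraries with the most Ccnd3 were also the 2 with the most Bysl, and reads of the shared stretch cannot be told apart. Tsr1 likewise shares 1240 of 3837 exonic bases with Srr on the opposite strand. Tsr1 ranged from 7.89 to 21.4 FPKM and Srr from 5.17 to 10.8 FPKM, both highest in AE+Meis2 replicate 2. The assembly factors Heatr1 (8.43 to 17.1 FPKM), Wdr43 (19.9 to 46.9 FPKM), Utp20 (4.97 to 9.56 FPKM) and Rrp12 (5.5 to 13.8 FPKM) varied between 1.92-fold and 2.51-fold.

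Among large subunit factors, Gnl3, the nucleolar GTPase nucleostemin (chromosome 14, 31012433 to 31019131), was at 69.6, 70 and 34.1 FPKM in AE+Meis2 libraries, 35, 42.7 and 25.3 FPKM in AE9a+Meis2 libraries, and 39.3 and 53.7 FPKM in AE9a libraries. Pes1, Bop1 and Wdr12 form the PeBoW complex of large subunit assembly, yet their levels did not run together. Wdr12 (chromosome 1, 60071361 to 60098500) was at 23.2, 24.3 and 15.4 FPKM in AE+Meis2 libraries, 13.8, 18.1 and 9.21 FPKM in AE9a+Meis2 libraries, and 13.5 and 19.6 FPKM in AE9a libraries. Bop1 (chromosome 15, 76452988 to 76477249) was at 21.2, 19 and 16.8 FPKM in AE+Meis2 libraries, 17.6, 21.5 and 23.1 FPKM in AE9a+Meis2 libraries, and 11.8 and 22.7 FPKM in AE9a libraries. AE9a+Meis2 replicate 3 held the least Wdr12 and the most Bop1. Pes1 had the smallest range of the 32, 1.51-fold (38.5 to 57.9 FPKM). The RNA methyltransferase Nop2 ranged from 14.2 to 23.5 FPKM, the helicase Ddx21 from 31.7 to 71.1 FPKM, and the further assembly factors Ppan from 18.1 to 39.6 FPKM, Nop16 from 15.3 to 28.7 FPKM, and Rrs1 from 9.24 to 18.8 FPKM.

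The comparison of AE9a+Meis2 with AE9a asks what accompanies Meis2 beside the truncated fusion. None of the 32 genes passed in it, and 26 were lower in AE9a+Meis2 without passing. By limma with Benjamini-Hochberg adjustment 0 of 32 were called and 0 had an unadjusted p under 0.05, against 0.0478% and 3.06% of all genes tested. The median log2 difference of the 32 was -0.14, against -0.0011 over all genes, and 50.1% of all genes were lower. The genes with the smallest p were Gnl3 (-0.44 ± 0.38), Gar1 (-0.35 ± 0.32), Bop1 (0.31 ± 0.29), Polr1b (-0.37 ± 0.37), Rrp9 (-0.37 ± 0.38) and Polr1c (-0.25 ± 0.26), with an unadjusted p of 0.28 to 0.366. Nob1 was the single gene whose libraries did not overlap, being lower in AE9a+Meis2, as were 10.7% of all genes in that direction and 23.8% in either. The direction depends on which AE9a library is kept. Without AE9a replicate 2, 23 of 32 were higher (median 0.14), and without AE9a replicate 1 31 of 32 were lower (median -0.38). AE9a+Meis2 replicate 3 and AE9a replicate 1 had most of the gene families that marrow does not use above 0. Without both, 27 of 32 were lower (median -0.30).

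AE+Meis2 against AE9a+Meis2 sets the full-length fusion beside the truncated one, but the groups were not matched in Meis2 RNA. Meis2 was at 13.1, 38.2 and 81.5 FPKM in AE+Meis2 libraries and 621.5, 603.5 and 1277 FPKM in AE9a+Meis2 libraries. The part of this difference in the results below was not tested. Here 26 of the 32 were higher in AE+Meis2 and again none passed. Limma called 0 of 32, with 0 at an unadjusted p under 0.05, against 0.0398% and 7.15% of all genes. The median log2 difference was 0.23, against 0.04 over all genes, of which 54.9% were higher. By role, all 4 box H/ACA proteins (median 0.43), all 4 RNA polymerase I genes (0.11) and both abundant nucleolar proteins were higher in AE+Meis2, with 8 of 9 large subunit factors (0.22), 5 of 7 small subunit factors (0.14) and 3 of 5 box C/D proteins (0.25). The counts without AE+Meis2 replicate 1 were 3 of 4, 3 of 4, 2 of 2, 5 of 9, 5 of 7 and 3 of 5 in that order. Gnl3 led at 0.70 ± 0.34 (95% interval -0.10 to 1.49, limma adjusted p = 0.732), followed by Wdr12 (0.60 ± 0.31), Dkc1 (0.66 ± 0.34), Nop56 (0.54 ± 0.28), Ncl (0.49 ± 0.26) and Nop58 (0.63 ± 0.34). These 6 ran from 0.37 (Ncl) to 0.59 (Dkc1) without AE+Meis2 replicate 1. None of the 32 had groups without overlap, against 13.5% of all genes in either direction. Scaled to the sum without small RNA, which moved the median of all genes from 0.04 to -0.18, only 15 of 32 were higher. The median of the 32 stood 0.18 above that of all genes before and 0.16 above it after that scaling. Without AE+Meis2 replicate 3 the median was 0.44 and 9 of the 32 had an unadjusted p under 0.05, all higher, where 6.02% of all genes did in that direction and 13.2% in either, and the count of all genes called was 23 in place of 5. Without AE+Meis2 replicate 1, whose transgene levels go against its label, the median was 0.16 with 21 of 32 higher, and without AE+Meis2 replicate 2 it was 0.09.

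**Figure D3:**
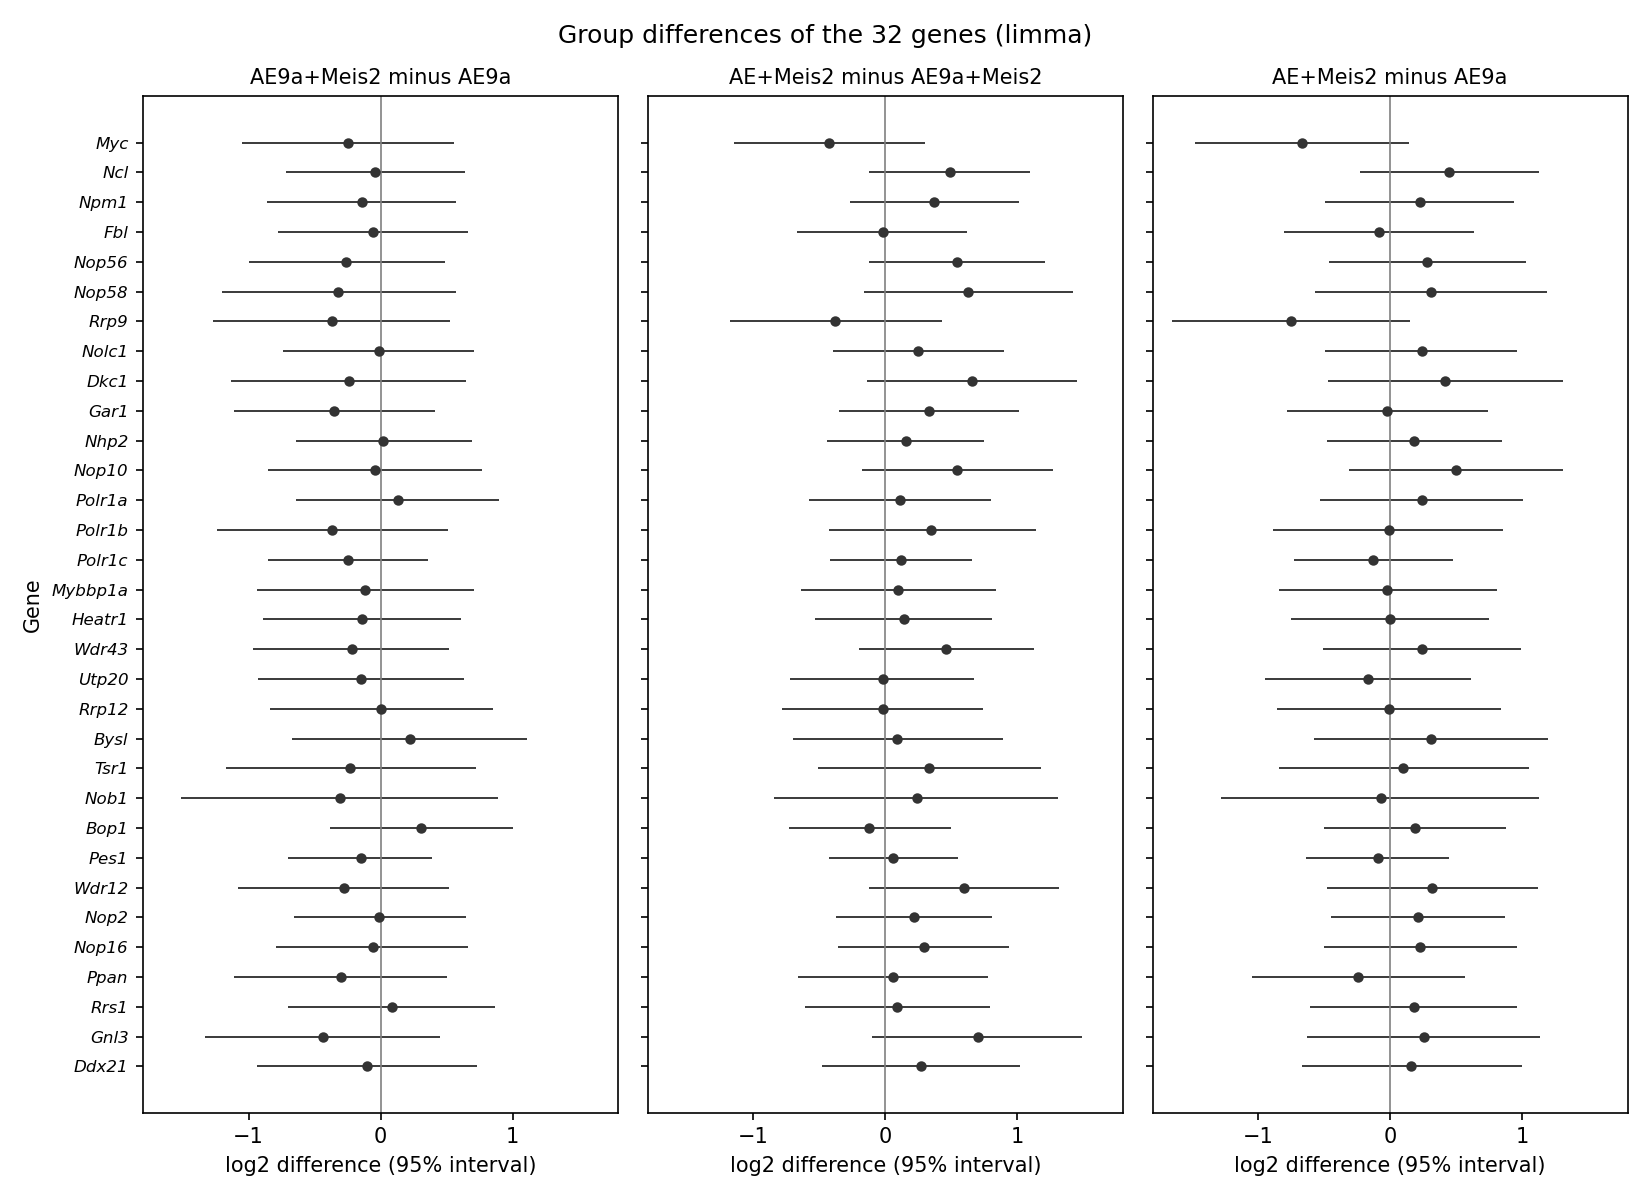
Log2 difference of each of the 32 genes in the 3 comparisons, with its 95% interval from limma over all 8 libraries (n = 3, 3 and 2). Every interval crosses 0, and in the middle panel 26 of the 32 points lie above 0.

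In AE+Meis2 against AE9a, where by the labels both the fusion and the presence of added Meis2 differ, 20 of 32 were higher and none passed. Limma called 0 of 32, with 0 at an unadjusted p under 0.05, against 0.0318% and 5.98% of all genes. The median was 0.18, against 0.06 over all genes, of which 55.9% were higher. In none of the 32 were the groups free of overlap, against 18.6% of all genes. Rrp9 (-0.75 ± 0.38, 95% interval -1.65 to 0.15, limma adjusted p = 0.921) and Myc had the smallest p, followed by Ncl (0.45 ± 0.29), Nop10 (0.50 ± 0.35), Dkc1 (0.42 ± 0.38) and Wdr12 (0.32 ± 0.34). Rrp9 was at -1.06 without AE+Meis2 replicate 1. Scaling to the sum without small RNA moved the median of all genes from 0.06 to -0.27 and that of the 32 to -0.17, with 3 of 32 higher, and under quantile normalization 16 were higher. By role the RNA polymerase I genes had 1 of 4 higher, against 7 of 9 large subunit factors. Without AE+Meis2 replicate 1 the median was 0.08 with 18 of 32 higher, near the 0.06 of all genes. Leaving out AE9a replicate 1 turned the median to -0.11, and leaving out AE9a replicate 2 gave 0.41. The 3 comparisons share libraries, so none of them repeats another.

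**Figure D4:**
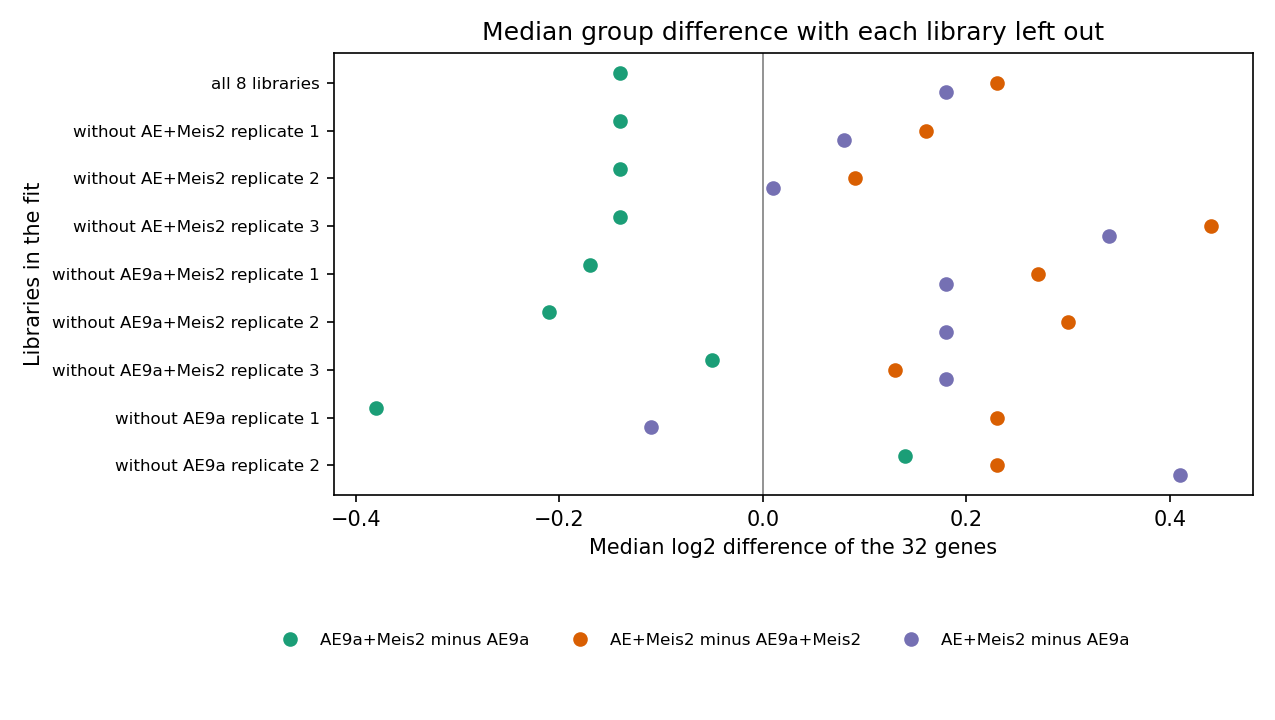
Median log2 difference of the 32 genes (x axis) in the 3 comparisons (colors), with all 8 libraries and with each library left out in turn (y axis). Both comparisons with AE9a change sign when 1 AE9a library is left out, while AE+Meis2 minus AE9a+Meis2 runs from 0.09 to 0.44.

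The intervals show what these libraries could have missed. The median distance from the estimate to the 95% bound was 0.78 on the log2 scale for AE9a+Meis2 minus AE9a, 0.70 for AE+Meis2 minus AE9a+Meis2 and 0.78 for AE+Meis2 minus AE9a. In 13, 16 and 15 of the 32 genes the interval reached a change of at least 1 in some direction, so these libraries do not show that those genes kept their level. The spread lay within groups: the median SD of the 32 genes was 0.425 in AE+Meis2, 0.246 in AE9a+Meis2 and 0.375 in AE9a. For the 7673 genes whose mean level lay in the same range it was 0.385, 0.226 and 0.19. The 2 AE9a libraries thus differed more in these genes than in genes of like level, a difference that was not tested.

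Other genes of the pathway, in 8 lists, gave no call by limma over all genes in any comparison. Of 18 MYC network genes 16 were tested. Mxd4, which represses MYC targets by taking its partner MAX, was at 40.2, 47.6 and 57 FPKM in AE+Meis2 libraries, 41.3, 30.7 and 28.2 FPKM in AE9a+Meis2 libraries, and 26.8 and 28.9 FPKM in AE9a libraries. Its AE+Meis2 libraries all lay above both AE9a libraries (log2 0.76 ± 0.24, limma adjusted p = 0.664), where 9.96% of all genes did so, and it differed from AE9a+Meis2 by 0.52 ± 0.21 with overlap. Mlx, a MAX-like partner, was higher in AE9a+Meis2 than AE9a without overlap (0.64 ± 0.39), where 13.1% of all genes were.

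Metabolic and translation targets of MYC had 24 tested genes, with medians of -0.11 for AE9a+Meis2 minus AE9a, 0.24 for AE+Meis2 minus AE9a+Meis2 and 0.07 for AE+Meis2 minus AE9a. In that order the medians were -0.07, 0.15 and 0.06 for 18 other RNA polymerase I genes, and -0.04, 0.08 and -0.06 for 22 of RNA polymerase III. Other assembly factors gave -0.03, 0.11 and 0.05 for 42 of the small subunit, and -0.10, 0.18 and 0.11 for 50 of the large subunit. The exosome, which trims pre-ribosomal RNA, gave -0.12, 0.14 and 0.04 over 15 genes, and snoRNP assembly factors gave -0.08, 0.05 and -0.13 over 12. For AE+Meis2 minus AE9a+Meis2, where 54.9% of all genes were higher with a median of 0.04, 40 of 50 large subunit factors and 13 of 15 exosome genes were higher, and no list member passed. Without AE+Meis2 replicate 1 these counts were 34 of 50 (median 0.07) and 9 of 15 (0.05), and the median of the snoRNP assembly factors was -0.07. Scaled to the sum without small RNA they were 18 of 50 (median -0.07) and 5 of 15 (-0.08), beside 30.4% of all genes and a median of -0.18, and the median of each list was below 0. For AE+Meis2 minus AE9a, leaving out AE+Meis2 replicate 1 also turned list medians. They were then -0.06 for metabolic and translation targets and -0.01 for other large subunit factors.

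Some single genes of these lists came nearer to a call than any of the 32, Utp11l and Sbds most of all. Utp11l, a small subunit factor, was at 38.6, 47 and 40.5 FPKM in AE+Meis2 libraries and 26.4, 30.5 and 23.7 FPKM in AE9a+Meis2 libraries (difference 0.63 ± 0.17, limma adjusted p = 0.516). Sbds, which frees the large subunit for translation, was at 48.7, 61.1 and 48.5 FPKM in AE+Meis2 libraries and 36.4, 38.5 and 30.7 FPKM in AE9a+Meis2 libraries (0.57 ± 0.17, limma adjusted p = 0.584). In both genes every AE+Meis2 library lay above every AE9a+Meis2 library. Of all 12565 genes 879 did so, and 13.5% had no overlap in either direction. The differences were 0.69 for Utp11l and 0.62 for Sbds when AE+Meis2 replicate 1 was left out. Ubtf, which recruits RNA polymerase I to ribosomal DNA (0.41 ± 0.18), C1d of the exosome (0.44 ± 0.19) and the nucleotide synthesis enzyme Ppat (0.56 ± 0.29) were likewise higher without overlap. Brf2, an RNA polymerase III factor, was lower without overlap (-0.43 ± 0.19), and Rpap3, which assembles snoRNPs, differed by -0.36 ± 0.21. Polr3g, a polymerase III subunit, was at 4.72, 6.24 and 3.31 FPKM in AE9a+Meis2 libraries and 8.35 and 8.62 FPKM in AE9a libraries (-0.75 ± 0.33).

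The remaining genes with the smallest p of their list were spread over most steps of the pathway. In AE9a+Meis2 against AE9a they were Eif4e (-0.36 ± 0.22), Tcof1 (0.35 ± 0.26), Utp11l (-0.28 ± 0.19), Urb2 (-0.39 ± 0.30), Skiv2l2 (-0.21 ± 0.19) and Tgs1 (-0.33 ± 0.23). In AE+Meis2 against AE9a they were Zfp622 (0.62 ± 0.21), Wdr46 (0.46 ± 0.23), Exosc7 (0.40 ± 0.27), Eif4a1 (0.38 ± 0.27), Taf1b (0.33 ± 0.23), Brf2 (-0.43 ± 0.22) and Coil (-0.31 ± 0.22). None passed limma, with adjusted p between 0.711 and 1.

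Several of the genes carry small nucleolar RNAs inside their introns, the guides that the snoRNP proteins use. By GENCODE M21 8 of the 32 (25.0%) hold at least 1 on their own strand, namely Ncl, Nop56, Nop58, Dkc1, Gnl3, Ppan, Tsr1 and Wdr43, against 1.71% of 11277 tested protein-coding genes. Of 23 such RNAs 11 have an entry in the table. Snora75 in Ncl was at 35.6, 83 and 66.1 FPKM in AE+Meis2 libraries and 148, 78.7 and 41.4 FPKM in AE9a+Meis2 libraries, and is listed at 0 in both AE9a libraries, where Ncl itself was at 69.8 and 109 FPKM. Snord69 in Gnl3 had 6262 and 35964 FPKM in the first and second AE+Meis2 libraries and 6234 and 1966 FPKM in the first and second AE9a+Meis2 libraries, and is listed at 0 in the other 4 libraries. Libraries were not ordered alike by these entries and by their hosts. FPKM divides by length, so the values of very short RNAs are unsteady, and 5 of the 11 are listed at 0 in every library.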

How the data were processed

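The authors deposited 1 table of FPKM for 23997 genes in 8 marrow libraries. By the submitters' processing notes it was made with TopHat, Cufflinks and Cuffdiff on mm10, and per the labels' protocols a TruSeq RNA kit was used. Versions, annotation and scaling are not given in the sources. Depth is unknown, since the table has no read counts. Judged from low values, AE9a replicate 1, the shallowest, had roughly 12.3% of the depth of AE9a+Meis2 replicate 2, the deepest. Eef1a1 is listed at 0 in all AE9a+Meis2 libraries, which can be a failed estimate, while none of the 32 genes is at 0.

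Sample titles gave groups and replicate numbers. The 12565 genes that reached 1 FPKM in 2 or more libraries were tested on log2(FPKM + 1), a scale that understates the change of low genes. The fit used limma 3.58.1 (R 4.3.3) with a coefficient for each group, all 8 libraries and an intensity trend, on 2.28 prior plus 5 residual degrees of freedom. Two-sided p-values were adjusted by Benjamini-Hochberg over these genes at a threshold of 0.05. The fit was run on simulated data with independent normal noise around each gene's mean. Those data held no mislabelled library and no shift shared by genes, so they check the calculation only. Cuffdiff, which needs alignments, was not run. The 32 genes, the lists and the settings were chosen with earlier results of these data known.

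Differences are given for Myc, for the 6 of the 32 with the smallest p in each comparison and for the gene with the smallest p of each pathway list. Mxd4, Nob1 and Bysl are also described for their levels. Alternatives were a pseudocount of 0.1, no filter or one of 5 FPKM, 3 other scalings, no trend, only 2 groups, a replicate block, and libraries left out. Coordinates are RefSeq's (GRCm38.p6, the assembly of mm10). Python 3.11.15 was used with NumPy 2.4.6, matplotlib 3.10.9 and pandas 2.3.3.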

Additional observations from a re-analysis of the deposited data

How the results depend on the processing

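Under all 18 alternatives of each comparison the count of called genes among the 32 was 0 by limma, as in the fit over 8 libraries. The median log2 difference of the 32 moved by less than the spread between replicates (0.302) in 53 of 54 recalculations. The exception was AE+Meis2 against AE9a scaled to the sum without small RNA, at -0.17 in place of 0.18. That spread is larger than each of these medians, so a change of sign could count as no move. AE9a+Meis2 against AE9a went from -0.14 to 0.14 without AE9a replicate 2. AE+Meis2 against AE9a went from 0.18 to -0.11 without AE9a replicate 1. AE+Meis2 against AE9a+Meis2 went from 0.23 to -0.01 when scaled to the sum without small RNA. With each library left out in turn the median ran from -0.38 to 0.14 in AE9a+Meis2 against AE9a, from 0.09 to 0.44 in AE+Meis2 against AE9a+Meis2, and from -0.11 to 0.41 in AE+Meis2 against AE9a. With the replicate block the medians were 0.002, 0.23 and 0.30 in that order, with 16, 26 and 28 of 32 higher. In AE+Meis2 against AE9a+Meis2 5 of the 32 then had an unadjusted p under 0.05 by limma, all higher, where 4.15% of all genes did in that direction. Whether replicate numbers pair the libraries could not be settled with 2 or 3 libraries a group. Same-numbered libraries of different groups had deviations from group means correlated between -0.03 and 0.13 across genes. Differently numbered ones were between -0.10 and 0.08. The block moved the count of all genes called from 6, 5 and 4 to 2, 5 and 0. Over all genes that count ran from 2 to 9, from 5 to 23 and from 0 to 10.

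Named genes kept their direction in 777 of 792 recalculations, and none was called in any fit with at least 2 libraries a group. Changing the filter or trend, or leaving out the third group or its libraries, cannot move a log2 difference. Such settings count here as kept direction and above as unmoved medians, so both counts overstate the stability. With each library left out in turn, AE9a+Meis2 against AE9a ran from -0.63 to 0.13 for Myc, -0.75 to 0.0033 for Rrp9, -0.51 to 0.01 for Polr1c, -0.14 to 0.76 for Bop1 and -0.0033 to 0.71 for Tcof1. AE+Meis2 against AE9a ran from -0.08 to 0.92 for Dkc1, -0.01 to 0.76 for Eif4a1 and -0.0036 to 0.81 for Exosc7. The ends below 0 came without AE9a replicate 1 and those above 0 without AE9a replicate 2. Without AE9a+Meis2 replicate 3 and AE9a replicate 1 together, Bop1, Tcof1, Dkc1, Eif4a1 and Exosc7 were at -0.22, -0.05, -0.08, -0.01 and -0.0036. Scaling to the sum without small RNA turned Wdr12 (-0.03) and Taf1b (-0.02) in AE+Meis2 against AE9a. The cause was not tested. A group left with 1 library is assumed to vary like the others. With 2 or 3 libraries a group, changes within the intervals given could not be detected.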
